A study of Mus musculus with 2 samples.

Results

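The 7 genes described here code for secreted ligands of the bone morphogenetic protein (BMP) family in the mouse aorta: Bmp2, Bmp3, Bmp4, Bmp5, Bmp6, Bmp7 and Gdf10. They were taken by symbol from the 32285 genes of the count matrices, and all 7 were found in each of the 2 libraries. The study set aortas of wild-type mice beside aortas of mice with a knock-in that mutates matrix Gla protein (MGP), and its title asks how BMPs regulate the differentiation of cells of the media, the muscular layer of the wall. The ligands bear on that question because MGP is a secreted protein that binds BMPs and inhibits calcification.

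BMP ligands are made as proproteins that furin-like convertases cleave, and they are secreted as dimers. A dimer brings type I and type II receptor kinases together, the receptors phosphorylate SMAD proteins, and these enter the nucleus with Smad4 and switch on targets such as the Id genes. Secreted binders, among them noggin, chordin and MGP, hold ligands back from the receptors. Bmp2 and Bmp4 are close relatives known for inducing bone and cartilage genes, also in calcifying vessels. Bmp5, Bmp6 and Bmp7 form a subgroup of their own, and Bmp6 is known from liver endothelium, where it drives hepcidin. Bmp3 dampens BMP signalling, and Gdf10, also called BMP3b, is its nearest relative.

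The wild-type group was 1 library of aortic cells from wild-type mice, and the knock-in group was 1 library from mice labelled MGP-KI. The mice of each group were 1 month old and of both sexes. Aortas were perfused, stripped of adventitia under a dissecting microscope and digested with Liberase, and dead cells taking up DAPI were sorted out. The libraries were made with the 10x Genomics droplet method and are both labelled as batch 1. Which residue was mutated, how many mice went into a library and the sex ratio of the pools are not given in the labels. They name no cell type to which the knock-in is limited, so a difference in a cell type cannot be assigned to MGP made in that cell type.

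Each genotype has a single library (n = 1), so genotypes could not be tested against each other and no difference below has a replicate check. Intervals in this text are 95% intervals of counting error alone and do not cover differences between mice, dissections or libraries. Those of levels and log2 ratios take each UMI as independent. They leave out differences between cells as well, and are too narrow where few cells hold many UMIs of a gene. Filtering kept 3588 cells of the wild-type library, at a median depth of 20395.5 UMIs, and 6089 of the knock-in library, at 11650 UMIs. A UMI (unique molecular identifier) stands for 1 captured RNA molecule. The libraries shared 4 cell barcodes. Cells with Xist and no Y-linked UMI came to 32.6% in the wild-type library and 46.0% in the knock-in library, and cells with the reverse to 56.7% and 33.5%.

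Cells were grouped by their transcriptomes with the 7 ligands and Mgp left out of the clustering genes, and groups were named from marker lists. Fibroblast-like cells numbered 2691 in the wild-type library (75% of cells) and 2911 in the knock-in library (47.8%). Smooth muscle cell (SMC)-like cells numbered 296 (8.25%) and 2590 (42.5%), macrophage or monocyte-like cells 351 (9.78%) and 292 (4.80%), and endothelial-like cells 64 (1.78%) and 46 (0.755%). All 10 markers of each of these 4 classes were detected in it in both libraries. Fibroblast-like cells were the largest class of each library, although the adventitia is described as removed.

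The fibroblast-like cells fell into 3 clusters, called here by a leading gene: a Pex5l cluster (1367 wild-type and 1375 knock-in cells), an Entpd2 cluster (523 and 1083) and a Tmem100 cluster (801 and 453). The SMC-like cells fell into a Mylk4 cluster (246 and 2351) and a small Sncg cluster (50 and 239). A cluster with Rgs5 and Chrm2 among its leading genes (55 and 192 cells) and a cluster of cycling-gene cells stayed unnamed. Gdf10 was among the 10 leading genes of the Entpd2 cluster and Bmp6 among those of the endothelial-like cells, although neither had been used for clustering.

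The ligands differed in their main sources, and some shared one. Bmp6 came mostly from the few endothelial-like cells, Bmp2 per cell from macrophage or monocyte-like cells and the Sncg cluster, Bmp4 from endothelial-like and fibroblast-like cells, and Bmp3 and Gdf10 from fibroblast-like cells. Bmp5 and Bmp7 were close to the limit of detection and lay mainly in the Tmem100 cluster of the wild-type library. Between genotypes, within fibroblast-like cells, Bmp3 was lower and Gdf10 and Bmp4 were higher in the knock-in library. Bmp2 was higher in knock-in SMC-like cells.

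**Figure D1:**
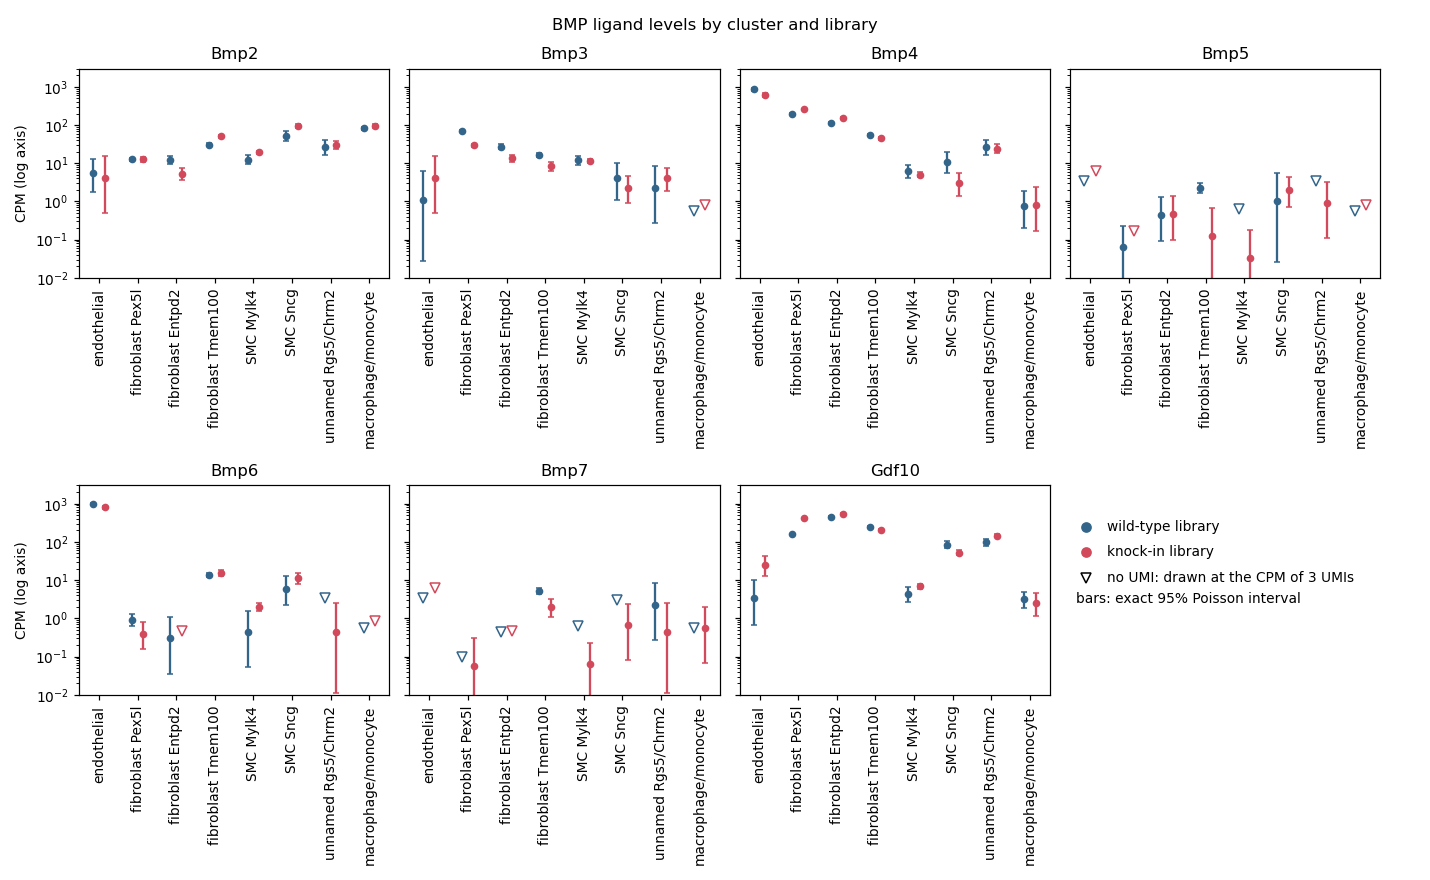
Level of each ligand in CPM (UMIs of the gene per 1000000 UMIs of the same cells, log axis) in 8 clusters, 1 panel per ligand, blue for the wild-type and red for the knock-in library; bars are exact 95% Poisson intervals, and open triangles mark clusters without a UMI, drawn at the level of 3 UMIs. Bmp6 stands near 1000 CPM in endothelial-like cells and at or below 15.2 CPM in every other cluster drawn, while Bmp3 has no UMI in macrophage or monocyte-like cells of either library.

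Levels in CPM state how many UMIs a gene had per 1000000 UMIs of the same cells. This does not adjust for gene length, so levels are compared between cells and not between ligands. Free RNA in the droplets also leaves UMIs in cells that do not make a gene. Macrophage or monocyte-like cells gave its measure for the fibroblast ligands: Gdf10 had 17 UMIs there in the wild-type library and 9 in the knock-in library, where empty droplets led to an upper estimate of 12.9 and 8.70, and Bmp4 had 4 and 3, against 6.95 and 2.18. Gdf10 UMIs were seen in 4.27% and 3.08% of these cells and Bmp4 UMIs in 1.14% and 1.03%, at median depths of 15003 and 11408.5 UMIs, and these shares are read as background.

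Bmp2, an osteogenic ligand, was highest in macrophage or monocyte-like cells. They held 446 UMIs in the wild-type library, 82.7 CPM (75.2 to 90.7), and 346 in the knock-in library, 95.9 CPM (86.0 to 106.5). The intervals overlap, and the log2 ratio of knock-in over wild-type was 0.21 (0.01 to 0.42). Free RNA accounted for at most 2.03 and 1.32 of these UMIs. Bmp2 UMIs were found in 126 of 351 wild-type cells (35.9%) and 74 of 292 knock-in cells (25.3%). After thinning every cell to 5000 UMIs, which leaves out shallower cells, the shares were 18.6% of 339 and 19.0% of 284 cells. Within the class, Bmp2 lay in the finer cluster led by C1qa, Mrc1 and Folr2, genes of resident macrophages, at 93.4 and 104 CPM. The finer cluster led by Cd74 and H2-Ab1, genes of antigen presentation, held 6 and 0 UMIs in 38 and 17 cells.

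In SMC-like cells Bmp2 had a level of 19.5 CPM in the wild-type library (16.0 to 23.5, 110 UMIs) and 26.0 CPM in the knock-in library (24.3 to 27.8, 885 UMIs), a log2 ratio of 0.42 (0.13 to 0.72). The knock-in level was the higher, and the intervals did not overlap. Both SMC-like clusters showed this order: the Mylk4 cluster held 12.4 and 19.5 CPM, a log2 ratio of 0.65 (0.26 to 1.06), and the Sncg cluster 52.4 (39.1 to 68.7) and 92.4 CPM (81.9 to 104), a log2 ratio of 0.82 (0.39 to 1.28). The ratio of the class is smaller than that of either cluster, and the Sncg cluster was 50 of 296 wild-type but 239 of 2590 knock-in SMC-like cells. At finer clustering Bmp2 was higher in the knock-in library in 4 of 4 SMC-like clusters, with intervals that left out 0 in 2 of them.

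The Bmp2 difference in SMC-like cells differed between subsets of cells by sex and by UMIs of posterior Hox genes. In female cells (116 wild-type and 1520 knock-in) the log2 ratio was 0.82, and in male cells (151 and 764) it was -0.06. Of the SMC-like cells, 39.2% were female in the wild-type library and 58.7% in the knock-in library. Posterior Hox genes, which are expressed toward the abdominal end of the body axis, were measured for 6 list members in SMC-like cells. Of these, 5 were at least 1.5-fold lower in the knock-in library, with a list median of -1.59 on the log2 scale. In cells without a posterior Hox UMI (251 and 2436) the Bmp2 ratio was 0.60, and in cells with such a UMI (45 and 154) it was -0.04. Finding a Hox UMI also depends on a cell's depth. Whether sex or aortic position has a part in the result was not tested. The mean over cells of each cell's own CPM gave a ratio of 0.12.

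Among fibroblast-like cells Bmp2 was concentrated in the Tmem100 cluster, at 30.7 CPM in the wild-type library (28.3 to 33.4, 579 UMIs) and 50.1 CPM in the knock-in library (45.4 to 55.2, 410 UMIs). The knock-in level was higher, with a log2 ratio of 0.71 (0.52 to 0.89). A finer cluster with Igfbp6, Sfrp4 and Wnt2 among its leading genes held 243 and 300 of these UMIs, with 66.3 CPM in 116 wild-type cells and 73.5 CPM in 172 knock-in cells, a log2 ratio of 0.15 (-0.10 to 0.40). That finer cluster was a larger part of the Tmem100 cluster in the knock-in library. Within the Tmem100 cluster Bmp2 was higher in the knock-in library in 3 finer clusters and lower in 1. The interval left out 0 in 1 of the former, at 35.7 and 55.8 CPM (119 and 45 cells), a log2 ratio of 0.64 (0.12 to 1.15). In the Entpd2 cluster the order was the reverse, 12.2 CPM against 5.36 CPM (82 and 34 UMIs), a log2 ratio of -1.19 (-1.81 to -0.60). Cells of that cluster had median depths of 12189 and 4338 UMIs, and SMC markers summed to 133 and 1119 CPM in them; the part of either in the result was not tested. The Pex5l cluster held 12.8 and 12.6 CPM, and all fibroblast-like cells together 18.7 and 20.6 CPM.

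In the order of the wild-type clusters for Bmp2, macrophage or monocyte-like cells came first, then the Sncg cluster, then the Tmem100 cluster, and the Pex5l, Mylk4 and Entpd2 clusters did not differ beyond counting error. In the knock-in library macrophage or monocyte-like cells and the Sncg cluster had overlapping intervals at the top. Endothelial-like cells held 5 and 2 Bmp2 UMIs. Because the cell types had different shares of the libraries, the bulk of Bmp2 shifted: fibroblast-like cells held 61.6% of its wild-type UMIs and 34.0% of its knock-in UMIs, and SMC-like cells 6.40% and 44.8%.

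**Figure D2:**
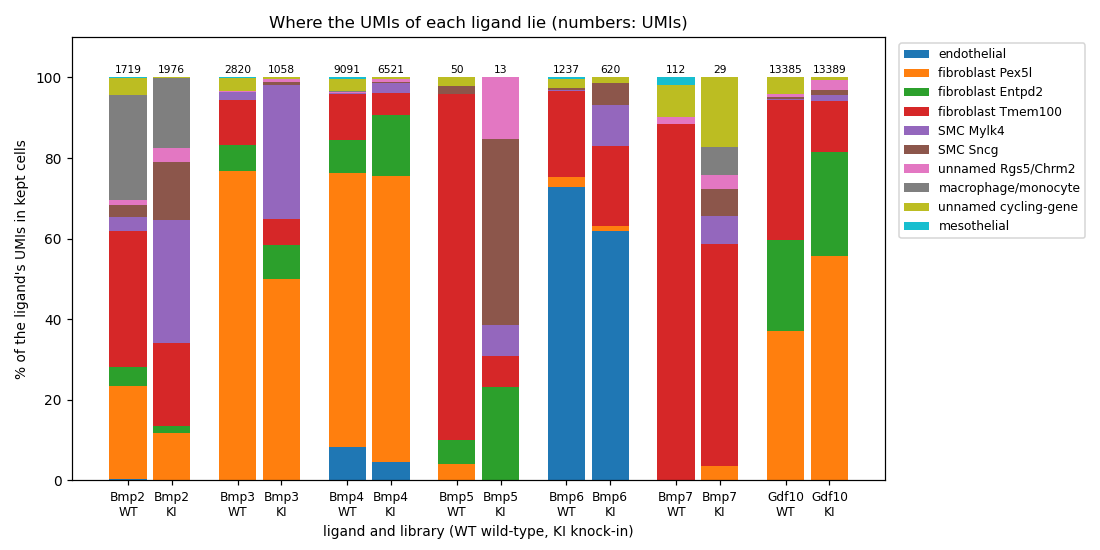
Stacked bars give the percentage of each ligand's UMIs in kept cells that came from each cluster, 1 bar per library and ligand, with the ligand's total UMIs above each bar. Endothelial-like cells hold 72.8% of wild-type Bmp6 UMIs and 61.9% of knock-in Bmp6 UMIs, and SMC-like cells hold 2.16% and 34.1% of the Bmp3 UMIs.

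Bmp4, the close relative of Bmp2, had its highest level in endothelial-like cells. They held 762 wild-type UMIs, 851 CPM (792 to 914), and 298 knock-in UMIs, 620 CPM (552 to 695). UMIs were found in 50 of 64 wild-type cells (78.1%) and 35 of 46 knock-in cells (76.1%), and in 75.4% and 72.5% after thinning to 5000 UMIs. The level was lower in the knock-in library, with a log2 ratio of -0.46 (-0.66 to -0.26), while the share of cells differed by less than its counting error.

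Bmp6, the ligand known from liver endothelium, was expressed in the same endothelial-like cells. It had 901 UMIs in the wild-type library, 1007 CPM (942 to 1075), and 384 in the knock-in library, 799 CPM (721 to 883). It was detected in 51 of 64 (79.7%) and 35 of 46 (76.1%) cells, and a single wild-type cell held 100. The knock-in level was lower, with a log2 ratio of -0.33 (-0.51 to -0.16). UMIs of Bmp4 and of Bmp6 occurred together in 45 of 64 wild-type cells and in 31 of 46 knock-in cells, where independent occurrence gives 39.8 and 26.6.

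The endothelial-like cells of the libraries differed in their lymphatic markers. The 6 lymphatic markers summed to 932 CPM in the wild-type library, with 6 of 6 detected, and to 49.9 CPM in the knock-in library, with 4 of 6 detected and Mmrn1 and Ccl21a at 0. A UMI of any of them was found in 16 of 64 wild-type cells and in 16 of 46 knock-in cells. In the remaining 48 and 30 cells, Bmp4 stood at 819 and 807 CPM, a log2 ratio of -0.02 (-0.26 to 0.21), and Bmp6 at 1033 and 1053 CPM, a log2 ratio of 0.03 (-0.18 to 0.23). In the 16 and 16 cells with a lymphatic marker UMI, Bmp4 stood at 932 and 375 CPM and Bmp6 at 940 and 466 CPM. These sets were not alike in the markers, with 590 and 0 UMIs of Ccl21a and 94 and 0 of Mmrn1. The lower knock-in levels of both ligands were thus measured in cells with a lymphatic marker UMI and not in the others. This split was made after the levels had been seen. Fibroblast markers summed to 1804 CPM in the wild-type and 4651 CPM in the knock-in endothelial-like cells, and their part in the result was not tested.

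The Bmp6 ratio in endothelial-like cells also changed sign between subsets of cells. It was -0.79 in female cells (26 and 22), 0.18 in male cells (28 and 15) and 0.32 in cells of 8000 to 20000 UMIs (40 and 26). The Bmp4 ratio was -0.39 in female and -0.49 in male cells.

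The 250 bases before the start site are shown for Bmp4 and Bmp6, the ligands with their highest level in endothelial-like cells, and for Gdf10, which had 3 and 12 UMIs there. The sequences are from RefSeq on GRCm38.p6, 5′ to 3′ on the strand of the gene. They lie on chr14:46390670-46390919 (minus strand), chr13:38345466-38345715 (plus strand) and chr14:33923337-33923586 (plus strand), and capitals mark the palindrome CACGTG, the core of the E-box bound by basic helix-loop-helix factors.
Bmp4: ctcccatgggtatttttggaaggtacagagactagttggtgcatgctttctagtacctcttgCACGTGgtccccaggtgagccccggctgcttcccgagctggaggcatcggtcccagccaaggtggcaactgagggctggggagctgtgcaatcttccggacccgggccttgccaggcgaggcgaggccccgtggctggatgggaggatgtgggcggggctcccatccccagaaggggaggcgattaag
Bmp6: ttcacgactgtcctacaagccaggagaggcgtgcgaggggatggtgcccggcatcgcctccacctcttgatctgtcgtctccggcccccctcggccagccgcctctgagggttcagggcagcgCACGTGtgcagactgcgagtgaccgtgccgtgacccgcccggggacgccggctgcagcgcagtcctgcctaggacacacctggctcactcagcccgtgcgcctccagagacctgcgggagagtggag
Gdf10: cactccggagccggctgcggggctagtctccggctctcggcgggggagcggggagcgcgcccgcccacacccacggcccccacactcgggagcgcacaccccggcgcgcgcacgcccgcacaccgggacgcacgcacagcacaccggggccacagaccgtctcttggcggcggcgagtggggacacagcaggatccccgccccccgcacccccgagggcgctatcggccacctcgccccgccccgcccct
The palindrome reads the same on either strand and was found once in the Bmp4 window, at bases 188 to 183 before the start, and once in the Bmp6 window, at bases 127 to 122. It was not found in the Gdf10 window or in the Bmp5 window, the fourth promoter that the sequence table held for a member. Of 32851 promoter windows of the same length, 1978 (6.02%) held it. The motif was chosen after the levels had been seen, and a match is a run of letters, not a measured binding site. The Gdf10 window was 78.8% G or C, against 68.8% for Bmp6, 63.2% for Bmp4 and 42.8% for Bmp5.

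Outside the endothelium Bmp4 was a fibroblast ligand. Fibroblast-like cells held 7948 wild-type UMIs, 140 CPM (137 to 143), and 5980 knock-in UMIs, 184 CPM (179 to 188). UMIs were found in 67.6% and 55.8% of cells, and in 40.1% and 46.1% after thinning, so the share was higher in the knock-in library once depth was made equal. The log2 ratio was 0.39 (0.34 to 0.44), a 1.31-fold difference that does not reach the 1.5-fold used for counts below. It was 0.65 in female cells and 0.28 in male cells. The Pex5l cluster had the highest fibroblast level, 198 and 256 CPM, followed by the Entpd2 cluster with 112 and 156 CPM and the Tmem100 cluster with 54.9 and 44.6 CPM. No intervals overlapped between neighbours in this order. SMC-like cells held 7.08 and 4.85 CPM, with 165 knock-in UMIs against an upper free-RNA estimate of 12.2.

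Bmp6 had a second, small source in the Tmem100 cluster, with 264 wild-type UMIs in 90 of 801 cells, 14.0 CPM (12.4 to 15.8), and 124 knock-in UMIs in 37 of 453 cells, 15.2 CPM (12.6 to 18.1). These levels differed by less than counting error, with a log2 ratio of 0.11 (-0.21 to 0.43). A finer cluster led by Nav3, Cd55 and Pi16 held 230 and 96 of these UMIs in 119 and 45 cells, 79.8 CPM (69.8 to 90.8) and 109 CPM (88.5 to 133). Pi16 and Cd55 are known as markers of a fibroblast population found in the outer layers of many tissues.

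SMC-like cells had few Bmp6 UMIs, 8 wild-type and 96 knock-in, or 1.42 and 2.82 CPM. Their log2 ratio was 1.00, with an interval (-0.04 to 2.25) that included 0. In the Mylk4 cluster there were 2 and 62, or 0.429 and 2.002 CPM, a log2 ratio of 2.22 (0.31 to 5.30). The wild-type cluster held only 246 cells, and the interval is wide. No Bmp6 UMI was found in the macrophage or monocyte-like cells of either library, where 3 UMIs would be 0.556 and 0.831 CPM.

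Bmp7, of the same subgroup as Bmp6, had 112 UMIs in all wild-type cells and 29 in all knock-in cells. In the Tmem100 cluster there were 99 UMIs in 55 wild-type cells, 5.26 CPM (4.27 to 6.40), and 16 UMIs in 12 knock-in cells, 1.96 CPM (1.12 to 3.18). The log2 ratio was -1.43 (-2.29 to -0.66). The Nav3, Cd55 and Pi16 cluster held 86 and 15 of these UMIs, 29.8 CPM (23.9 to 36.8) and 17.1 CPM (9.56 to 28.2). The intervals of these levels overlapped, while that of the log2 ratio, -0.80 (-1.70 to -0.003), just left out 0. Of the cells of the Tmem100 cluster, 119 of 801 wild-type cells and 45 of 453 knock-in cells belonged to this finer cluster. In cells with a posterior Hox UMI the direction of the Bmp7 ratio in the Tmem100 cluster was the reverse, at 0.85.

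Bmp5, the other member of that subgroup, had 50 wild-type and 13 knock-in UMIs. Of these, 43 and 1 lay in the Tmem100 cluster, 2.28 and 0.122 CPM, a log2 ratio of -4.22 (-9.56 to -1.67). The 43 UMIs came from 19 of 801 cells, with up to 6 in a single cell, so they are fewer independent observations than their number. The finer cluster led by C7, Clec3b and Sfrp1 held 32 wild-type UMIs in 14 cells. In the knock-in library the Sncg cluster held 6 of the 13 UMIs.

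Within the Tmem100 cluster some pairs of ligands occurred together in more cells, and others in fewer, than independent occurrence gives. UMIs of Bmp6 and Bmp7 occurred together in 28 wild-type cells, where independent occurrence gives 6.18, and in 7 knock-in cells, against 0.980. Bmp3 and Bmp6 occurred together in 41 and 14 cells, against 15.4 and 2.86. Bmp6 and Gdf10 occurred together in 13 wild-type cells, against 62.4, and in 0 of 453 knock-in cells, against 21.8. The Nav3, Cd55 and Pi16 cluster held 230 of 264 wild-type Bmp6 UMIs, 86 of 99 Bmp7 UMIs and 187 of 314 Bmp3 UMIs. Gdf10 stood there at 18.0 and 29.6 CPM, against 247 and 206 CPM in the whole Tmem100 cluster. Joint counts at equal depth or within finer clusters were not tested.

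Bmp3, which dampens BMP signalling, was lower in the knock-in library in the fibroblast-like clusters. Fibroblast-like cells held 2659 wild-type UMIs, 46.9 CPM (45.2 to 48.7), and 683 knock-in UMIs, 21.0 CPM (19.4 to 22.6). UMIs were found in 37.1% and 14.1% of cells, and after thinning in 17.4% of 2551 and 9.72% of 2252 cells. The log2 ratio was -1.16 (-1.29 to -1.04), a level 2.24-fold lower in the knock-in library, and the intervals did not overlap.

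The same direction was found in each of the 3 fibroblast-like clusters. Bmp3 stood at 69.4 and 29.2 CPM in the Pex5l cluster, its highest level among these clusters in each library, with a log2 ratio of -1.25 (-1.39 to -1.11). It stood at 27.4 and 13.7 CPM in the Entpd2 cluster and at 16.7 and 8.32 CPM in the Tmem100 cluster, with log2 ratios of -0.999 and -1.003. In female cells of the Tmem100 cluster the ratio was 0.087. Among 8 finer fibroblast-like clusters Bmp3 was lower in the knock-in library in 7, with intervals that left out 0 in 4 of them. The exception was the Igfbp6, Sfrp4 and Wnt2 cluster, with 4 and 7 UMIs. Weighting the finer clusters as in the wild-type library gave a ratio of -0.83. The ratio was -0.68 in female cells (853 and 1040), -1.62 in male cells (1540 and 1017) and -0.60 in cells of 8000 to 20000 UMIs (878 and 1643), so its size moved by over 1.5 times with sex and depth and its sign did not change.

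In SMC-like cells the interval of the Bmp3 ratio included 0; whether the ratio differs from that of fibroblast-like cells was not tested. Its level was 10.8 CPM in the wild-type library (8.26 to 13.9, 61 UMIs) and 10.6 CPM in the knock-in library (9.55 to 11.8, 361 UMIs), a log2 ratio of -0.02 (-0.42 to 0.39). It was detected in 15.2% and 10.0% of these cells. Finer SMC-like clusters went opposite ways: the one led by Myh11, Cnn1 and Npnt (87 and 1077 cells) held 5.70 and 12.1 CPM, a log2 ratio of 1.08 (0.21 to 2.11), and another (106 and 740 cells) 19.9 and 11.9 CPM, a log2 ratio of -0.74 (-1.29 to -0.17). The sign for the class held in 8 of 16 alternatives. Of the Bmp3 UMIs, fibroblast-like cells held 94.3% in the wild-type library and 64.6% in the knock-in library. Macrophage or monocyte-like cells held none in 351 and 292 cells, an upper level of 0.556 and 0.831 CPM for 3 UMIs.

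Gdf10, the relative of Bmp3, was higher in knock-in fibroblast-like cells. They held 12635 UMIs in the wild-type library, 223 CPM (219 to 227), and 12593 in the knock-in library, 387 CPM (380 to 393). The log2 ratio was 0.79 (0.76 to 0.83), or 1.73-fold. UMIs were found in 59.2% and 57.3% of cells, and after thinning in 42.8% and 48.4%. Over all cells of a library the level was nearly equal, 183 and 181 CPM, since fibroblast-like cells made up 75% of cells in the former library and 47.8% in the latter.

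The difference lay mainly in the Pex5l cluster, with 160 CPM in the wild-type (155 to 164) and 413 CPM in the knock-in library (403 to 422), a log2 ratio of 1.37 (1.32 to 1.42). Gdf10 was detected in 44.4% and 50.2% of its cells, and in 29.6% and 42.5% after thinning. The Entpd2 cluster, where Gdf10 was highest in each library, held 449 (433 to 465) and 545 CPM (527 to 563), a log2 ratio of 0.28. The Tmem100 cluster had the reverse order, 247 and 206 CPM, a log2 ratio of -0.26 (-0.34 to -0.18). As a result the Tmem100 cluster stood above the Pex5l cluster in the wild-type library and below it in the knock-in library. The direction differed between finer clusters. In the one that overlapped the Tmem100 cluster most (463 and 136 cells) the log2 ratio was 0.16 (0.04 to 0.28). Among those of its cells that lay in the Tmem100 cluster (450 and 112) the ratio was 0.09 (-0.05 to 0.22). In the Igfbp6, Sfrp4 and Wnt2 cluster it was -0.27 (-0.46 to -0.08).

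**Figure D3:**
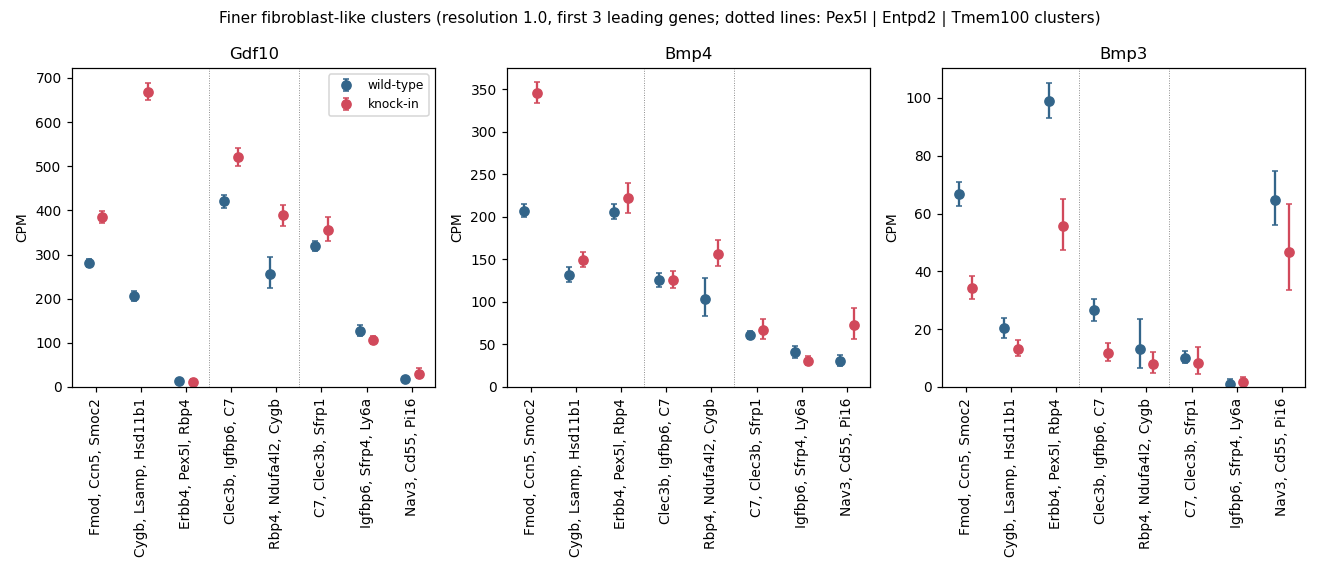
Levels of Gdf10, Bmp4 and Bmp3 in CPM in 8 finer fibroblast-like clusters, each named by its 3 leading genes, blue for the wild-type and red for the knock-in library, with exact 95% Poisson intervals; dotted lines part the clusters whose cells came mostly from the Pex5l, Entpd2 and Tmem100 clusters. Gdf10 goes from 206 to 669 CPM in the Cygb, Lsamp and Hsd11b1 cluster, and Bmp3 is lower in the knock-in library in 7 of 8 clusters.

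At finer clustering Gdf10 was higher in the knock-in library in 6 of 8 fibroblast-like clusters, with intervals that left out 0 in 5 of them. The Igfbp6, Sfrp4 and Wnt2 cluster was lower, with a log2 ratio of -0.27 (-0.46 to -0.08). The largest difference was in the cluster led by Cygb, Lsamp and Hsd11b1, where the fibroblast-like cells (310 wild-type and 550 knock-in) held 214 and 669 CPM, a log2 ratio of 1.65 (1.56 to 1.73). The cluster led by Fmod, Ccn5 and Smoc2 (632 and 675 cells) held 281 and 385 CPM. The cluster with Erbb4, Pex5l and Tnc among its leading genes had low Gdf10, 14.5 and 12.2 CPM, and the highest Bmp3 level, 99.0 and 55.7 CPM. It held 457 and 184 cells. Gdf10 was therefore low where Bmp3 was highest, and UMIs of both occurred together in 462 wild-type and 193 knock-in fibroblast-like cells, where independent occurrence gives 591 and 235. Bmp3 and Bmp4 occurred together in 833 and 319 cells, against 676 and 229.

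Part of the Gdf10 and Bmp3 ratios of the class moved with the mix of finer clusters. With finer clusters weighted as in the wild-type library the Gdf10 ratio was 0.54 and the Bmp3 ratio -0.83, against 0.79 and -1.16 as measured. The Gdf10 ratio was 0.75 in female and 0.82 in male cells, 1.05 in cells without and 0.64 in cells with a posterior Hox UMI, and 0.52 in cells of 8000 to 20000 UMIs. SMC markers summed to 428 CPM in wild-type and 740 CPM in knock-in fibroblast-like cells, and fibroblast markers to 63111 and 58842 CPM. Their part in these ratios was not tested.

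Outside the clusters named fibroblast-like, Gdf10 was clear of background in both unnamed clusters. The cycling-gene cluster held 151 CPM in the wild-type (139 to 164) and 61.8 CPM in the knock-in library (48.5 to 77.7). Its log2 ratio was -1.29 (-1.66 to -0.94). The Rgs5 and Chrm2 cluster held 98.2 CPM in the wild-type (78.5 to 121) and 147 CPM in the knock-in library (131 to 163). The Sncg cluster of SMC-like cells held 85.6 and 52.6 CPM (85 and 160 UMIs), a log2 ratio of -0.70 (-1.09 to -0.31), and UMIs in 58% and 28.0% of its cells. The Mylk4 cluster held 4.29 and 6.91 CPM, with 20 and 214 UMIs against upper free-RNA estimates of 4.47 and 45.3. Endothelial-like cells held 3 and 12 UMIs, and 11 of the 12 came from 1 cell. In the cycling-gene cluster Bmp2 (75 and 2 UMIs), Bmp3 (94 and 3) and Bmp4 (287 and 21) were lower in the knock-in library. Their log2 ratios were -3.63 (-6.71 to -1.73), -3.38 (-5.68 to -1.78) and -2.18 (-2.89 to -1.54). For Bmp6 and Bmp7 the ratios there were -0.16 and 0.75, with intervals that included 0. This cluster had 123 wild-type and 58 knock-in cells. It was set apart by cycling genes and not by cell type. Whether its mix of cell types differed between the libraries, and the part of that in these ratios, was not tested.

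**Figure D4:**
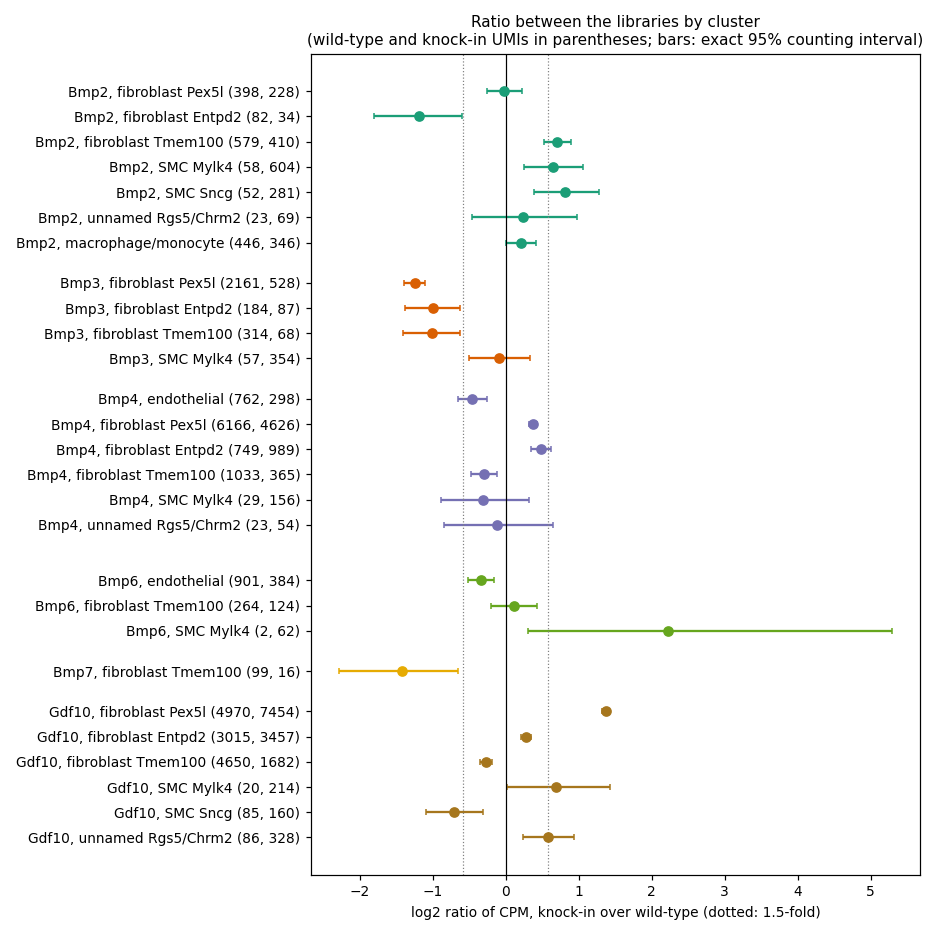
Log2 ratio of the knock-in over the wild-type level for each ligand and cluster with at least 50 UMIs over both libraries. The cycling-gene cluster, which also passed this limit for some ligands, is not drawn. Bars are 95% counting intervals and dotted lines mark 1.5-fold. Bmp3 lies below the lower line in all 3 fibroblast-like clusters, and Gdf10 lies highest in the Pex5l cluster at 1.37.

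Counted over the members, differences of at least 1.5-fold were mixed in direction. The count takes genes with at least 20 UMIs over both libraries in the class and adds 0.5 to each sum. In fibroblast-like cells 7 of 7 ligands were measured, of which 1 was higher in the knock-in library (Gdf10), 3 were lower (Bmp3, Bmp5 and Bmp7) and 3 lay between. Of all genes measured there, 10% were higher and 8.85% lower by as much, 18.9% in all. The median log2 ratio was -0.37 for the ligands and -0.06 for all genes. In SMC-like cells 5 of 7 were measured, with 1 higher (Bmp6) and 1 lower (Gdf10), against 9.61% and 10% of all genes, 19.6% in all. In endothelial-like cells Bmp4 and Bmp6 were measured and neither was 1.5-fold apart, against 12.1% of all genes higher and 14.5% lower, 26.5% in all. In macrophage or monocyte-like cells Bmp2 and Gdf10 were measured and neither was 1.5-fold apart, against 6.55% higher and 9.55% lower, 16.1% in all.

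By cluster, the Pex5l cluster had 1 of 5 measured ligands higher and 2 lower, against 11.8% and 7.92% of all genes (19.7% in all). The Entpd2 cluster had 0 of 4 higher and 2 lower (8.14% and 9.72%, 17.9% in all), and the Tmem100 cluster 1 of 7 higher and 3 lower (7.54% and 12.5%, 20% in all). The Mylk4 cluster had 3 of 5 higher and 0 lower (10.3% and 10.3%, 20.6% in all), and the Sncg cluster 2 of 4 higher and 2 lower (12% and 10.6%, 22.6% in all). The ligands in a cluster are few, so these counts describe single genes more than a group.

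Of 14 other ligands of the BMP and GDF families, 5 had enough UMIs to be measured in fibroblast-like cells. Gdf6, a ligand known from joint and skull formation, differed most of these, with 950 wild-type UMIs, 16.8 CPM, and 87 knock-in UMIs, 2.67 CPM, a log2 ratio of -2.65 (-2.98 to -2.33). It was lower in the knock-in library in female cells (-0.96), in male cells (-3.65), in cells without a posterior Hox UMI (-2.82) and with one (-2.27), and in cells of 8000 to 20000 UMIs (-1.52). It was also lower in each of the 4 finer clusters with at least 20 UMIs, with log2 ratios from -2.62 to -2.11. SMC-like cells held 0 and 1 Gdf6 UMIs. Of the 5 list members measured in fibroblast-like cells, 1 was at least 1.5-fold higher (Bmp8a, 1.36 and 2.89 CPM) and 1 lower, against 10% and 8.85% of all genes. In SMC-like cells 4 were measured, with Bmp8a (1.95 and 5.06 CPM) and Gdf11 higher and Gdf15 lower (35.9 and 21.6 CPM), against 9.61% and 10% of all genes. Gdf11 had 6 and 59 UMIs there, with an interval (-0.50 to 2.21) that included 0. Gdf15, a stress-induced ligand, was highest in macrophage or monocyte-like cells, at 99.7 and 80.4 CPM.

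Receptors for these ligands were present in the same tissue. In fibroblast-like cells 13 of 14 receptor and co-receptor genes were measured, with 1 at least 1.5-fold higher (Rgmb, a co-receptor, 25.1 and 39.1 CPM) and 0 lower, against 10% and 8.85% of all genes, and a median log2 ratio of -0.03. The type I receptor Bmpr1a stood at 116 and 107 CPM, the type II receptor Bmpr2 at 135 and 153 CPM, and the co-receptor Tgfbr3 at 198 and 246 CPM. In SMC-like cells 13 were measured, with 3 higher (Tgfbr3 at 41.6 and 75.2 CPM, Rgma and Rgmb) and 0 lower, against 9.61% and 10% of all genes. In the Sncg cluster 4 of 12 were higher, against 12% of all genes, and 0 lower, with Tgfbr3 at 50.4 and 112 CPM. Among these 4, Bmpr1b (13 and 64 UMIs) and Acvr2b (3 and 18 UMIs) had intervals that included 0. In the Tmem100 cluster 3 of 12 were higher (Bmpr1b at 7.22 and 15.8 CPM, a log2 ratio of 1.13) and 2 lower (Acvr1b at -0.99 and Acvr2a at -0.84 on the log2 scale), against 7.54% and 12.5% of all genes. The type I receptor Bmpr1b stood at 188 and 204 CPM in SMC-like cells and at 26.5 and 25.7 CPM in fibroblast-like cells. The higher level was that of the Mylk4 cluster, with 226 and 222 CPM, while the Sncg cluster held 13.1 and 21.1 CPM. In endothelial-like cells 9 were measured, with Eng (385 and 599 CPM) and Acvr2a higher and 0 lower, against 12.1% and 14.5% of all genes. Acvr2a had 17 and 14 UMIs there, with an interval (-0.51 to 1.73) that included 0.

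The log2 ratios of BMP target genes had either sign, depending on the gene and the cluster. Of 11 measured in fibroblast-like cells, 0 were 1.5-fold apart, against 18.9% of all genes, and the median was 0.12; the inhibitor of differentiation gene Id1 stood at 81.4 and 79.3 CPM and Id2 at 151 and 165 CPM. In the Tmem100 cluster 2 of 11 were higher, against 7.54% of all genes, Id4 at 26.2 and 51.5 CPM and Id1 at 44.2 and 69.1 CPM, a log2 ratio of 0.65 (0.49 to 0.80). In the Entpd2 and Pex5l clusters Id1 was lower, with log2 ratios of -0.39 (-0.58 to -0.21) and -0.22 (-0.30 to -0.13). Id3, the target with the most UMIs, was higher in both, with log2 ratios of 0.26 (0.22 to 0.30) and 0.11 (0.09 to 0.13). Its ratio was 0.09 (0.05 to 0.13) in the Tmem100 cluster and -0.04 (-0.09 to 0.004) in SMC-like cells. For endothelial-like cells it was -0.26 (-0.41 to -0.10). In SMC-like cells 3 of 11 were higher (Smad7, Smad9 and Atoh8) and 0 lower, against 9.61% and 10% of all genes, and the median was 0.48 against -0.05 for all genes. Smad7, an inhibitory SMAD, stood at 104 and 169 CPM, while Id1 stood at 149.9 and 183 CPM and Id2 at 292 and 320 CPM. In endothelial-like cells 1 of 8 was lower (Hey1, 16 and 4 UMIs), against 14.5% of all genes, and 0 higher, and Id1 stood at 517 and 441 CPM. None of the 6 SMAD genes measured in fibroblast-like cells was 1.5-fold apart, and in SMC-like cells 2 of 6 were higher, Smad7 and Smad9, against 9.61% of all genes.

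Secreted binders were mixed. In fibroblast-like cells 13 of 17 were measured, with 2 higher (Sost, a Wnt and BMP antagonist, and Crim1), 2 lower (Fst, at 192 and 117 CPM, and Nog) and 9 between, against 10% and 8.85% of all genes, and the median was -0.20. Nog had 37 and 13 UMIs in fibroblast-like cells, with an interval (-1.75 to 0.23) that included 0. Sost stood at only 2.49 and 6.54 CPM there, and at 1.48 and 4.16 CPM in macrophage or monocyte-like cells. The part of free RNA in its fibroblast ratio was not tested. Mgp itself, counted without regard to the mutation, had a log2 ratio of 0.31 in these cells. It was 0.16 in the Entpd2 cluster and 0.32 in the Pex5l cluster, and in the Tmem100 cluster Mgp was lower, at 2574 and 1432 CPM, a log2 ratio of -0.85 (-0.88 to -0.82). In SMC-like cells Fst and Bmper were at least 1.5-fold lower, where 10% of all genes were. Bmper had only 6 and 18 UMIs there, and its interval (-2.40 to 0.62) included 0. Sost stood at 499 and 740 CPM in SMC-like cells. Among enzymes that process BMP proproteins and antagonists, 1 of 8 was lower in fibroblast-like cells (the convertase Pcsk5, 244 and 144 CPM) and 0 higher, against the same shares. In SMC-like cells Tll2 was higher and Pcsk6, Bmp1 and Pcolce were lower among 7 measured, against 9.61% of all genes higher and 10% lower. Tll2 had 2 and 38 UMIs, with an interval (-0.29 to 4.76) that included 0. Pcolce stood at 38.4 and 24.3 CPM in SMC-like cells, and at 22.8 and 23.0 CPM in macrophage or monocyte-like cells. The part of free RNA in its SMC ratio was not tested.

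Over 18 cluster-by-library sums, the genes whose levels went most closely with a ligand were named by Pearson's r of log2(CPM + 1), a description with no test, over sums that share libraries. For Bmp2 they were Il13ra1 (0.91), Adcy9 (0.88) and Lrrfip2 (0.87). For Bmp3 they were Aldh1l2 (0.92), Fmo2 (0.90) and Ccn5 (0.90), and for Gdf10 Ndufa4l2 (0.97), Podn (0.96) and Srpx (0.96). For Bmp4 they were Jam2, Col4a4 and Dock9 (0.95 each), and for Bmp6 Ywhab (0.95), Prrt4 (0.94) and Taok2 (0.93). Between the ligands themselves r was 0.65 for Bmp3 and Gdf10, 0.52 for Bmp4 and Bmp6, and -0.67 for Bmp2 and Bmp4.

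**Figure D5:**
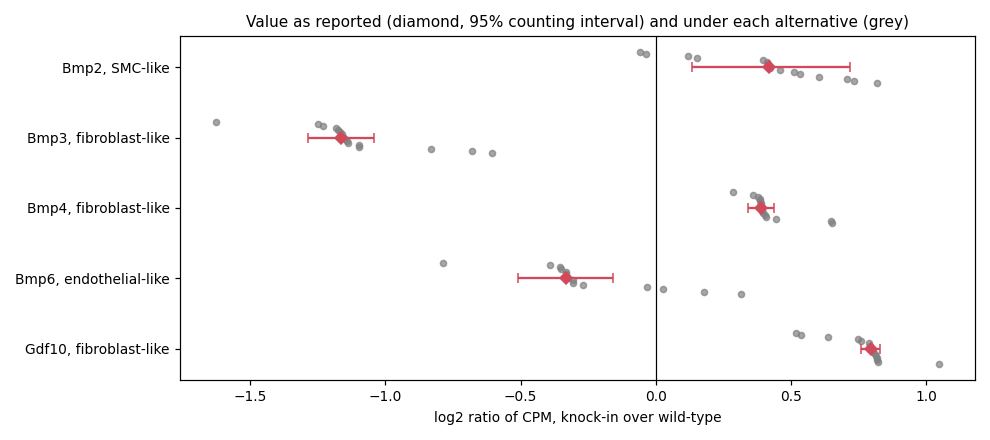
Log2 ratio of knock-in over wild-type for 5 ligand and class pairs, with the diamond at the value as measured and grey points at each alternative processing or subset of cells. Bmp3, Gdf10 and Bmp4 in fibroblast-like cells keep their sign in 16 of 16 alternatives, and Bmp2 in SMC-like cells and Bmp6 in endothelial-like cells cross 0.

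The differences in fibroblast-like cells kept their direction over the 16 alternatives, from -1.62 to -0.60 for Bmp3, from 0.52 to 1.05 for Gdf10 and from 0.28 to 0.65 for Bmp4. The Bmp2 ratio in SMC-like cells ranged from -0.06 to 0.82, with 14 of 16 above 0. The Bmp6 ratio in endothelial-like cells ranged from -0.79 to 0.32, with 12 of 15 below 0.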

How the data were processed

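The deposited values are UMI counts per gene and barcode, unnormalized and over all barcodes, which the authors produced in Cell Ranger 7.1.0 according to the submitters' processing notes. The genome build of the counts was not given in the sources used here. Cells were barcodes with at least 1000 UMIs, 500 genes and at most 10% mitochondrial UMIs. Total counts were 79626104 (wild-type) and 85831737 (knock-in). Doublets were scored with scrublet (scanpy 1.11.5), and the highest 0.8% per 1000 cells were removed (109 and 330 cells); its automatic threshold would have called 4 and 120.

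Both libraries were clustered together (2000 variable genes, 30 components, 15 neighbours, Leiden resolution 0.5, igraph 0.11.9; Python 3.11.15, numpy 2.4.6, scipy 1.17.1, pandas 2.3.3, matplotlib 3.10.9). A cluster took the name of the list with the highest average log2 gain over the lowest cluster and left unnamed when another list passed 0.65 of that score; names rebuilt in this way may differ from those of the study. UMIs were summed per class, with exact Poisson, conditional binomial and Clopper-Pearson intervals, and steps were tested on simulated data. Free RNA came from barcodes of 10 to 100 UMIs.

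The members and lists were chosen with earlier results of these data known. Named genes were the 7 ligands and the 3 genes most like each ligand with at least 200 UMIs. Up to 4 members of each list with the most UMIs were also named. Rgma, Rgmb, Eng, Acvr1b, Acvr2a, Acvr2b, Id4, Smad9, Atoh8, Hey1, Crim1, Fst, Nog, Bmper and Tll2 were chosen after their values were seen. Some results for the list of binders are not reported here. Tried alternatives changed filters, doublet removal, resolution, joint clustering, scaling, depth, sex, posterior Hox UMIs and free RNA. Weighting by finer clusters, leaving out the top cell and leaving out cells with a lymphatic marker UMI were added after seeing the data.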

Additional observations from a re-analysis of the deposited data

Results flagged for a closer look

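These 8 log2 ratios, knock-in over wild-type, stood out because, for the same ligand, clusters lay on opposite sides of 0 with counting intervals that left out 0. The differences between clusters were not tested, since each genotype has 1 library.

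Bmp2 was higher in the knock-in library in the Sncg cluster of SMC-like cells (0.82) and lower in the Entpd2 cluster of fibroblast-like cells (-1.19). Bmp4 was higher in the Entpd2 cluster (0.48) and lower in endothelial-like cells (-0.46). Bmp6 was higher in the Mylk4 cluster of SMC-like cells (2.22), with 2 wild-type UMIs there, and lower in endothelial-like cells (-0.33). Gdf10 was higher in the Pex5l cluster of fibroblast-like cells (1.37) and lower in the Sncg cluster (-0.70).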

How the results depend on the processing

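No paired analysis was possible because each genotype has 1 library, and for the same reason no replicate could be left out. Of the alternative values for the 5 main log2 ratios (Bmp3, Bmp4 and Gdf10 in fibroblast-like, Bmp2 in SMC-like and Bmp6 in endothelial-like cells), 56 moved by less than their counting interval, 18 by more and 5 changed sign. In cells of 8000 to 20000 UMIs they were -0.60 for Bmp3, 0.65 for Bmp4, 0.52 for Gdf10 and 0.32 for Bmp6. Female cells gave 0.82 for Bmp2, -0.68 for Bmp3, 0.65 for Bmp4, -0.79 for Bmp6 and 0.75 for Gdf10, and male cells -0.058, -1.62, 0.28, 0.18 for the first 4. Cells without a posterior Hox UMI gave -0.034 for Bmp6 and 1.05 for Gdf10, and cells with one -0.036 for Bmp2 and 0.64 for Gdf10. The mean CPM of each cell gave 0.12 for Bmp2 and 0.45 for Bmp4. Weighting finer clusters as in the wild-type library gave 0.73 for Bmp2, -0.83 for Bmp3 and 0.54 for Gdf10. Leaving out cells with a lymphatic marker UMI gave 0.028 for Bmp6. At a minimum of 500 UMIs or with no doublet removal no cluster was named endothelial-like, so there is no value. The cause of these shifts was not tested.

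Among the other ratios, those whose counting interval left out 0 changed sign in 26 cases, and the 6 whose interval included 0 in 25 (Bmp3 in SMC-like cells in 8 of 16). The former were 0.087 for Bmp3 in the Tmem100 cluster in female cells, 0.018 for Bmp6 in fibroblast-like cells in male cells, and, without a posterior Hox UMI, -0.11 for Bmp2 in fibroblast-like cells and 0.079 for Gdf10 in the Tmem100 cluster. With a posterior Hox UMI they were 2.09 for Bmp4 and 0.10 for Gdf10 in SMC-like cells, 0.46 for Bmp6 and 0.93 for Bmp7 in fibroblast-like cells, -0.10 for Bmp6 in the Mylk4 cluster, 0.85 for Bmp7 in the Tmem100 cluster and 0.36 for Gdf10 in the Sncg cluster. The mean CPM of each cell gave -0.21 for Bmp2 in fibroblast-like cells and 0.0064 for Gdf10 in the Tmem100 cluster. Weighted finer clusters gave 0.026 for Bmp4 and 0.050 for Gdf10 in the Tmem100 cluster and 0.29 for Bmp6 in fibroblast-like cells. Where cells were clustered anew, each cluster was replaced by the new cluster that overlapped it most. That cluster can be only a part of it and can hold cells from outside it. At resolution 1.0 the one standing for the Tmem100 cluster (463 and 136 cells) gave 0.15 for Bmp4 and 0.16 for Gdf10. Separate clustering gave 0.51 for Bmp7 in the Tmem100 cluster and, for Gdf10, -1.60 in the Mylk4, 0.88 in the Sncg and -0.027 in the Entpd2 cluster. Gdf10 in the Mylk4 cluster was -0.36 at a minimum of 2000 UMIs, -0.26 at 500, -0.97 at 5% mitochondrial UMIs and -0.0047 without doublet removal.

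With at least 50 in place of 20 UMIs, genes at least 1.5-fold apart numbered 863 in place of 2030 in endothelial-like, 1822 in place of 2761 in SMC-like and 1070 in place of 1806 in macrophage or monocyte-like cells. Bmp5 and Bmp7 rest on too few UMIs for a level per cell.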
